A study of Mus musculus with 56 samples.

Results

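The genes described here encode the proteins of the cytosolic ribosome in mouse brain. They were chosen by symbol: Rpl or Rps, a number and at most the letters a, l, x or y, or a P-stalk gene, each read through its brightest probe set among those annotated to 1 symbol. This gave 45 genes, 24 of the large and 21 of the small subunit, of which 40 passed a filter on dim probe sets that left 10684 features in all. A further 29 ribosomal protein symbols sat only on probe sets annotated to several symbols and are not described, Rplp1, Rpl3, Rpl5, Rpl10 and Rpl24 among them.

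The study measured 29 inbred strains on 1-colour oligonucleotide arrays, with 29 arrays of prefrontal cortex and 27 of nucleus accumbens, a ventral striatal region. Each array held RNA pooled from 3 males of 1 strain, 8 to 10 weeks old when bought, and a strain gave at most 1 array per region. The labels name no treatment. The dissection took the regions from neighbouring slices of a brain, and arrays were paired by strain. MRL/MpJ and NZO/HILtJ had a cortex array alone. The 27 paired strains were the wild-derived WSB/EiJ and the classical strains A/J, C57BL/6J, DBA/2J, 129S1/SvImJ, AKR/J, SWR/J, BTBR T+ tf/J, NOD/LtJ, C3H/HeJ, RIIIS/J, BUB/BnJ, SM/J, C58/J, KK/HlJ, CBA/J, P/J, BALB/cByJ, SJL/J, CE/J, NZW/LacJ, FVB/NJ, PL/J, I/LnJ, NON/LtJ, MA/MyJ and C57BR/cdJ. Mice of an inbred strain share 1 genotype and a pool hides their spread, so n below counts strains. In the main fit, each p-value is judged against how much the region difference varies between strains. No p-value measures the spread between mice.

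The cytosolic ribosome joins a small subunit, which reads the mRNA, to a large subunit, which forms peptide bonds and holds the exit tunnel for the nascent chain. Its proteins are made in near equal amounts, and their mRNAs start with a run of pyrimidines, the 5′ terminal oligopyrimidine (TOP) motif, through which the mTOR pathway controls their translation. Neurons make ribosomal proteins in the cell body and also translate their mRNAs in dendrites and axons, where local protein synthesis serves synaptic plasticity.

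RefSeq promoter windows (GRCm38.p6) of 300 bases were found for 39 of the 45 genes, in 47 entries. The 30 bases from 10 before the annotated start to 20 after it are shown for 8 genes, to let a reader see the pyrimidine run from which the TOP motif takes its name. Capitals mark the longest run of C or T that opens with C and has at least 5 further pyrimidines. All 8 windows shown hold such a run, while those of Rps7, Rplp0 and Rpl41 hold none. The run need not open at the annotated start: it opens at position 5 in Rps26 and at -8 in Rpl14.
Rpl35, chr2:39005112-39005141, minus strand: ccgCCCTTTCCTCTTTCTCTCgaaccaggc
Rpl38, chr11:114668570-114668599, plus strand: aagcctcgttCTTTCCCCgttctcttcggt
Rplp2, chr7:141447641-141447670, plus strand: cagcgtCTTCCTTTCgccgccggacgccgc
Rps6, chr4:86857348-86857377, minus strand: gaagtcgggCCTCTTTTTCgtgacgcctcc
Rps10, chr17:27635225-27635254, minus strand: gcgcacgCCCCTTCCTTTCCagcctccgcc
Rps18, chr17:33955646-33955675, minus strand: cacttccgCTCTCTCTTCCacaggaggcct
Rps26, chr10:128626487-128626516, minus strand: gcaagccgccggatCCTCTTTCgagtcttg
Rpl14, chr9:120571507-120571536, plus strand: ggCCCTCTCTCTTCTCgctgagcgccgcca
Such a run lay in the window of 25 of the 47 entries (53.2%), against 22% of all 32851 promoters, read on the gene's strand. The letters CTTTCC were in 6 of the 47 windows (12.8%), against 1.28% of all promoters; each such match is itself a pyrimidine run of the kind above.

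Elsewhere in the promoters, the letters CCGGAAG, on either strand of the whole window, were found in 19 of the 47 entries (40.4%), against 8.86% of all promoters. The letters CTCGCGA, on either strand, were in 12 entries (25.5%), against 1.93%. The 4 stretches below show these words in capitals for genes that lead the region or strain results. CTTCCGG is CCGGAAG read on the other strand. A CTCGCGA can overlap its own reverse, as in Rps19 and Rpl10a.
Rps7, chr12:28635954-28635983, minus strand: actcttttcagaagagCTTCCGGtttccac
Rpl41, chr10:128549206-128549235, minus strand: tagtaaggcagCCGGAAGtcgctgtctcga
Rps19, chr7:24884574-24884603, plus strand: cactccgaaatCTCGCGAgactcgacgccc
Rpl10a, chr17:28328524-28328553, plus strand: aacgggcaactCTCGCGAgaacgcgggctc
A match is a stretch of letters, not a measured binding site. The 22 tested members with a pyrimidine run had a median region difference of 0.33 on the log2 scale and the 13 without one 0.28, over ranges that overlap. For CCGGAAG the medians were 0.36 (18 members) and 0.27 (17 members), and for CTCGCGA 0.35 (11 members) and 0.31 (24 members).

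Some arrays stood apart in features other than ribosomal genes. Median linear intensity over all probe sets ran from 9.94 to 10.4 in cortex and from 9.66 to 10.1 in accumbens. All 8 tested markers of medium spiny neurons, the main neurons of the accumbens, were higher there, and all 8 of cortical excitatory neurons were higher in cortex. Mean spiny neuron marker levels ran from 5.39 to 5.84 log2 units on cortex arrays, apart from 10.31 in MA/MyJ. In accumbens they had a median of 11.04 and were lowest in BALB/cByJ (8.00), NON/LtJ (9.60), CE/J (9.90) and WSB/EiJ (10.25). Mean cortical neuron marker levels in accumbens had a median of 4.09 and were highest in NOD/LtJ (5.66), BUB/BnJ (5.35), SJL/J (5.29) and P/J (5.11). Leaving out MA/MyJ and the 4 strains low in spiny neuron markers is written below as without 5 strains, and leaving out the other 4 as well is written as without 9 strains.

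Over 2168 strain-dependent features outside the ribosomal set, 26 of 27 cortex arrays and 26 of 27 accumbens arrays matched their own strain best across regions. These features had passed the strain test on the same arrays and labels. That choice favours own-strain matches, so the counts are no independent check of the labels. The cortex array labelled C57BR/cdJ had a correlation of 0.27 with its own accumbens array, 0.68 with that of BTBR T+ tf/J and 0.81 with the BTBR T+ tf/J cortex array. The accumbens array labelled C57BR/cdJ had 0.70 with C3H/HeJ accumbens, and the C58/J cortex array 0.62 with DBA/2J cortex and 0.53 with its own accumbens array. Strain results that name these arrays are given with and without C57BR/cdJ and C58/J.

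On the log2 intensity scale, ribosomal protein genes were among the brightest features of both regions. Brightness also depends on the probes, so the order below is one of probe sets, not of mRNA amounts. Rps29, a zinc-binding protein of the small subunit, had the brightest of all 10684 features, with 14.02 as its lowest, 14.15 as its median and 14.28 as its highest value over 27 cortex arrays. In accumbens the same values were 14.31, 14.38 and 14.46, and the 2 regions did not overlap. Of the 45 genes, 31 had a mean above 10 in both regions, and 7 of the tested genes were among the 100 brightest features. The next brightest members were Rpl13a, Rps28, Rpl38 and Rplp2, with cortex means between 12.18 and 13.08.

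At the other end stood members whose brightest probe set was dim. Rps6, the substrate of S6 kinase, had a cortex mean of 4.13, Rpl12 4.76, Rps25 4.93, Rpl39 5.29 and Rpl14 5.44, near or under the filter level of 5. The filter dropped 5 members. Rps16, Rps27, Rpl39l and Rpl3l were above log2 5 on 0 of 54 arrays, the latter pair being paralogues best known from testis and from muscle. Rps4l was above it on 10 of 54, with a cortex median of 3.16 and an accumbens median of 4.04, and was not tested.

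**Figure D1:**
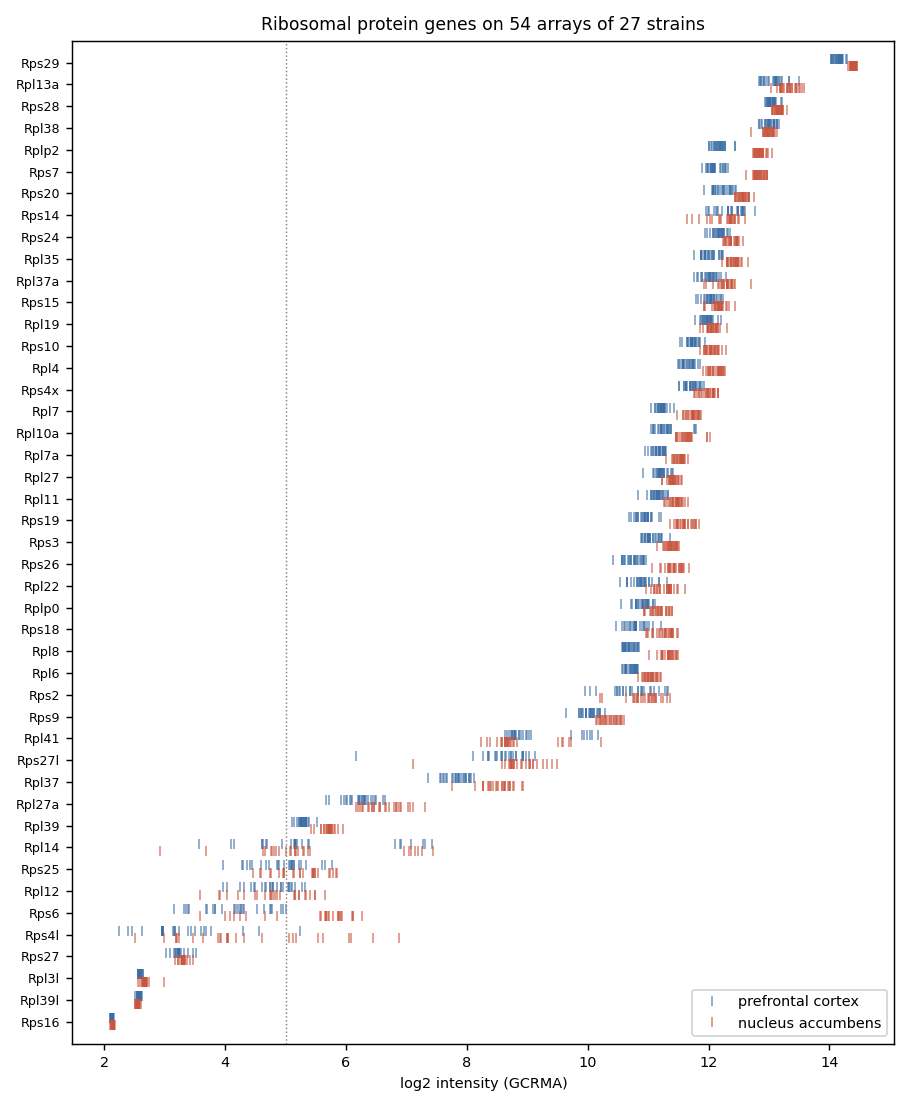
Log2 intensity of the 45 ribosomal protein genes on 54 arrays, 1 tick per strain, cortex above (blue) and accumbens below (red), ordered by mean level. The dotted line is log2 5. In 9 tested genes, Rps29, Rplp2 and Rps7 among them, the 27 accumbens ticks lie wholly above the 27 cortex ticks.

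The first comparison asked whether ribosomal protein mRNAs differ between the 2 regions of the same strains. Most were higher in accumbens: 35 of 40 members rose and 2 fell past a Benjamini-Hochberg adjusted p of 0.05 in limma's paired fit, while 51.0% of all features were higher and 32.9% lower. Their median difference was 0.32 on the log2 scale, or 1.25-fold, and that of all features 0.12. By subunit, 18 of 22 large and 17 of 18 small subunit genes rose, with medians of 0.33 and 0.32. In 20 members the value was higher in accumbens in all 27 strains, as in 18.7% of all features. In 9 members the regions did not overlap at all, which held for 6.12% of all features with accumbens on top.

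The arrays of the regions did not share 1 intensity distribution as deposited, and a general shift between regions cannot be told apart from the normalization. Relative to the median of all features, the members' median was higher by 0.20. Quantile normalization of all 54 arrays together brought the median of all features to 0.0059 and the share of features higher and lower to 41.7% and 40.9%. The members' median was then 0.22, with 31 higher and 3 lower. Among the 822 features with a mean above log2 10, where 31 members lie, the median difference was 0.10 as deposited and 0.01 after that step, and for those 31 members 0.32 and 0.23.

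**Figure D2:**
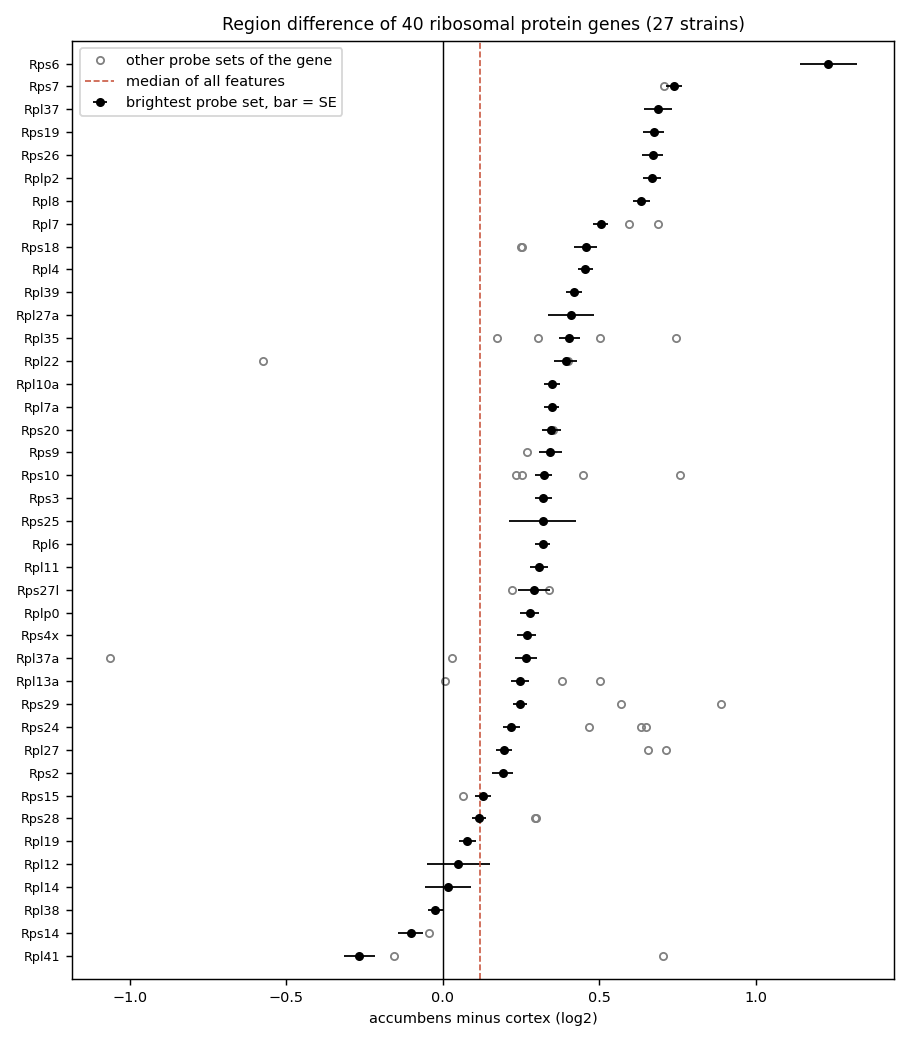
Accumbens minus cortex difference (log2) of the 40 tested genes over 27 strains, black points with SE bars for the brightest probe set and open circles for other probe sets of the gene. The dashed line is the median of all features, 0.12; 35 genes lie significantly above 0, and open circles of Rpl22 and Rpl37a lie far on the other side.

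The P-stalk, the lateral arm of the large subunit that recruits elongation factors, was represented by Rplp0 and Rplp2. Rplp2 ran from 12.00 to 12.44 over cortex strains (median 12.18) and from 12.73 to 13.05 in accumbens (median 12.83). Every accumbens array was above every cortex array, and the difference was 0.67 ± 0.03 (SE, n = 27 strains; limma adjusted p = 2.5e-19), or 1.59-fold. Rplp0, the base of the stalk, rose less, by 0.28 ± 0.03 (adjusted p = 1.8e-09), was higher in 26 of 27 strains and overlapped between regions.

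Among small subunit genes, Rps7 had the largest rise of the bright members. It ran from 11.89 to 12.32 in cortex (median 12.08) and from 12.62 to 12.97 in accumbens (median 12.84), without overlap, a difference of 0.74 ± 0.03 (adjusted p = 5.1e-21) or 1.67-fold. Its second probe set gave 0.71. Rps19, whose human counterpart is the gene most often mutated in Diamond-Blackfan anaemia, ran from 10.68 to 11.20 in cortex (median 10.94). In accumbens it ran from 11.37 to 11.83 (median 11.60), again without overlap. It rose by 0.67 ± 0.03 (adjusted p = 1.8e-17).
Rps26, a protein at the mRNA exit site, ran from 10.42 to 10.96 in cortex (median 10.76) and from 11.06 to 11.67 in accumbens (median 11.42). Its rise was 0.67 ± 0.03 (adjusted p = 1.3e-17), and its regions did not overlap.

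Rps6 passed the filter through accumbens arrays alone. Its call as higher in accumbens (limma adjusted p = 2.1e-13) therefore depends on a filter that only the higher region met. It is counted among the 35 members that rose, and only a lower bound of its rise can be given. Its cortex values ran from 3.16 to 5.0 (median 4.19) and its accumbens values from 3.59 to 6.26 (median 5.67). Against log2 5 the rise is at least 1.29-fold, and accumbens was the higher region in 27 of 27 strains. Above that level were 19 of 54 arrays, all of them accumbens arrays. Rps20 rose by 0.35 (1.27-fold), and X-linked Rps4x by 0.27 (1.20-fold). Rps28 rose by 0.11 and Rps29 by 0.25, both among the brightest features. After quantile normalization the sign of Rps28 turned (-0.03), as did that of Rps15 (from 0.13 to -0.0042) and Rpl19 (from 0.08 to -0.05).

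Among large subunit genes, Rpl8 and Rpl7 rose without overlap. Rpl8, a protein near the peptidyl transferase centre, ran from 10.56 to 10.85 in cortex (median 10.68) and from 11.02 to 11.49 in accumbens (median 11.34), a rise of 0.63 ± 0.03 (adjusted p = 3.6e-19). Rpl7 rose by 0.50 ± 0.02 (adjusted p = 4.1e-18), and its 2 further probe sets gave 0.59 and 0.69. Rpl37 rose by 0.69 ± 0.04 (adjusted p = 7.5e-15) in 27 of 27 strains, with overlap between regions. Rpl11, which with the 5S RNA binds Mdm2 under ribosomal stress, rose by 0.31 (1.24-fold). Rpl39, which lines the exit tunnel, rose by 0.42 (1.34-fold), from cortex values between 5.11 and 5.52 to accumbens values between 5.42 and 5.96.

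Fewer members did not follow. Rpl38, which mouse genetics ties to axial skeleton patterning, ran from 12.83 to 13.17 in cortex and from 12.70 to 13.13 in accumbens, a difference of -0.02 ± 0.02 (adjusted p = 0.35). After quantile normalization it was lower in accumbens by -0.17 (adjusted p = 9.1e-08). Rpl12 differed by 0.05 ± 0.10 (adjusted p = 0.66) and Rpl14 by 0.02 ± 0.07 (adjusted p = 0.85), both read through dim probe sets. Rps14 fell by 0.10 (adjusted p = 0.021) and was lower in accumbens in 19 of 27 strains; the call was lost without 5 strains (-0.08, adjusted p = 0.11), without the strain block (adjusted p = 0.12) and with the actin covariate described below (adjusted p = 0.12).

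Rpl41, the smallest ribosomal protein, was lower in accumbens by -0.27 ± 0.05 (adjusted p = 1.7e-05) and in 26 of 27 strains. Without C57BR/cdJ and C58/J the difference was -0.24 (adjusted p = 1.8e-06). Its probe sets disagreed: a dimmer one rose (from 4.91 to 5.61 on average), at least 1.53-fold against log2 5, and a further one fell by 0.15. With no strain block the adjusted p of the brightest was 0.068.

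Disagreement between probe sets of 1 gene was seen beyond Rpl41. Of 18 members with more than 1 kept probe set, 14 had all their other probe sets higher in accumbens, and of these 37 other probe sets 30 rose and 3 fell (adjusted over all kept probe sets). Rpl22, an RNA-binding protein of the large subunit, rose by 0.39 on its brightest probe set and by 0.40 on a second, while the other fell by 0.58. Rpl37a rose by 0.27 on its brightest, differed by 0.03 on another (adjusted p = 0.51), and fell on a dim one (from 5.17 to 4.11), at least 1.13-fold against log2 5. Rps29 gave 0.25 on its brightest probe set and 0.57 and 0.89 on dimmer ones, Rps24 0.22 against 0.47 to 0.65, and Rpl27 0.20 against 0.65 and 0.71. In 10 of the 18 the other probe sets had the larger median difference.

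Cell type markers moved with the region as well. All 8 oligodendrocyte markers were higher in accumbens; their mean ran from 7.57 to 9.90 on cortex arrays and from 8.56 to 10.95 on accumbens arrays. Of 6 microglia markers 5 were higher (means from 6.71 to 7.54 and from 7.15 to 8.11), of 2 choroid plexus markers both (2.63 to 6.40 and 4.80 to 7.30), and all 3 endothelial markers were lower (6.32 to 7.40 and 6.00 to 6.94). Of 6 astrocyte markers 2 were higher and 3 lower (8.87 to 9.70 and 8.44 to 9.48), and no blood marker passed the filter. The difference between 3′ and 5′ probe sets of the actin control, a measure of RNA integrity, was larger in accumbens by 0.17 on average and in 19 of 27 strains; with it as a covariate 34 members rose and 1 fell. In whole tissue, fewer cells of a type and less RNA per cell cannot be told apart, and the part of these markers in the ribosomal difference was not tested.

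The second comparison asked which members differ between strains in the same way in both regions. Most differed little: the median SD of strain means was 0.09 for members, 0.18 for all features and 0.11 for features above log2 10. By limma's moderated F test 9 of 40 members depended on strain, against 20.4% of all features. These were Rpl14, Rpl41, Rps27l, Rps6, Rps2, Rpl10a, Rpl37, Rpl13a and Rps14. Rpl14, Rps2, Rpl10a and Rpl37 had 1 probe set annotated to 1 symbol, so no second one could be compared. Whether the mRNA level or the reading of the probes differs between strains was not tested for any of the 9.

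Rpl14 had the widest spread (adjusted p = 5.7e-13). It lay between 6.81 and 7.43 in cortex and between 6.96 and 7.44 in accumbens in AKR/J, BUB/BnJ, C58/J, CBA/J, DBA/2J, NON/LtJ and PL/J. The other 20 strains were at or below 5.40 in both regions, down to 3.57 and 2.93 in BTBR T+ tf/J and 4.15 and 3.69 in WSB/EiJ. The 2 sets of values did not overlap. Since the low end lies under log2 5, the span between strain means of this probe set is at least 2.36 log2 units. Without C57BR/cdJ and C58/J the adjusted p was 1.5e-13.

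Rpl41 also fell into separate levels. In AKR/J, BTBR T+ tf/J, CE/J, RIIIS/J, SWR/J and WSB/EiJ it ran from 9.72 to 10.17 in cortex and from 9.51 to 10.21 in accumbens. In the other strains it was at most 9.05 in cortex and 8.82 in accumbens, except that the array labelled C57BR/cdJ had 9.90 in cortex and 8.64 in accumbens. Leaving out C57BR/cdJ and C58/J, the adjusted p moved from 8.4e-09 to 1.3e-11. This pattern rests on the brightest probe set: the next one gave an adjusted p of 0.50, with a span of 0.69.

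Rps27l, a paralogue of Rps27 that p53 induces, was the only member in which 1 strain lay 1 log2 unit or more outside the rest, in cortex and in accumbens alike; 0.711% of all features had such a strain. WSB/EiJ, a wild-derived strain, had 6.16 in cortex and 7.11 in accumbens. The next lowest values were 8.10 and 8.57, and the highest, in FVB/NJ, 9.13 and 9.49. Without WSB/EiJ and 4 other strains the span fell from 2.67 to 0.91 (adjusted p = 0.019). On both other probe sets of the gene, WSB/EiJ was not the lowest strain in either region (7.78 and 8.08 on the brighter of them, where CBA/J had 7.46 and 7.90).

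Rpl10a, the protein tagged in many ribosome purification mouse lines, was highest in NOD/LtJ, NON/LtJ and P/J, from 11.76 to 11.78 in cortex and from 11.97 to 12.03 in accumbens. The other strains ran up to 11.38 and 11.73, so the 3 strains stood apart in both regions (adjusted p = 6.8e-05). Without 9 strains, all 3 of these among them, the span was 0.26 (adjusted p = 0.33).
Rps2, a protein of the mRNA entry site, was lowest in DBA/2J (9.96 and 10.21) and I/LnJ (10.04 and 10.23). The C58/J cortex array followed at 10.14 although its accumbens array had 10.82. CBA/J was highest over both regions (11.31 and 11.37; adjusted p = 4.9e-08). Without C57BR/cdJ and C58/J the adjusted p of Rps2 was 1.5e-09.

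Rps6 was lowest in BALB/cByJ (3.35 in cortex and 3.59 in accumbens), A/J, BTBR T+ tf/J, I/LnJ and P/J, and its accumbens values otherwise reached 6.26 in RIIIS/J (adjusted p = 1.9e-05). All cortex values of Rps6 lay under log2 5, so its strain call depends on a filter that only accumbens arrays met. It does not show a strain difference in cortex above that level. Against log2 5, the span of its strain means is at least 0.51. Rpl37 was lowest in NOD/LtJ, with 7.36 and 7.75, and its strain mean was highest in C57BR/cdJ (adjusted p = 0.032, and 0.021 without C57BR/cdJ and C58/J). The call was lost without 9 strains, NOD/LtJ among them (adjusted p = 0.19), and with the actin covariate (adjusted p = 0.051). Rpl13a strain means spanned 0.54 log2 units, from 129S1/SvImJ to SWR/J (adjusted p = 0.0063), while a dimmer probe set of the gene was lowest in P/J. Rps14 spanned 0.84, from BALB/cByJ (11.96 and 11.64) to KK/HlJ (12.77 and 12.51, adjusted p = 0.0054). Without 9 strains, BALB/cByJ among them, the adjusted p of Rps14 was 0.081.

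**Figure D3:**
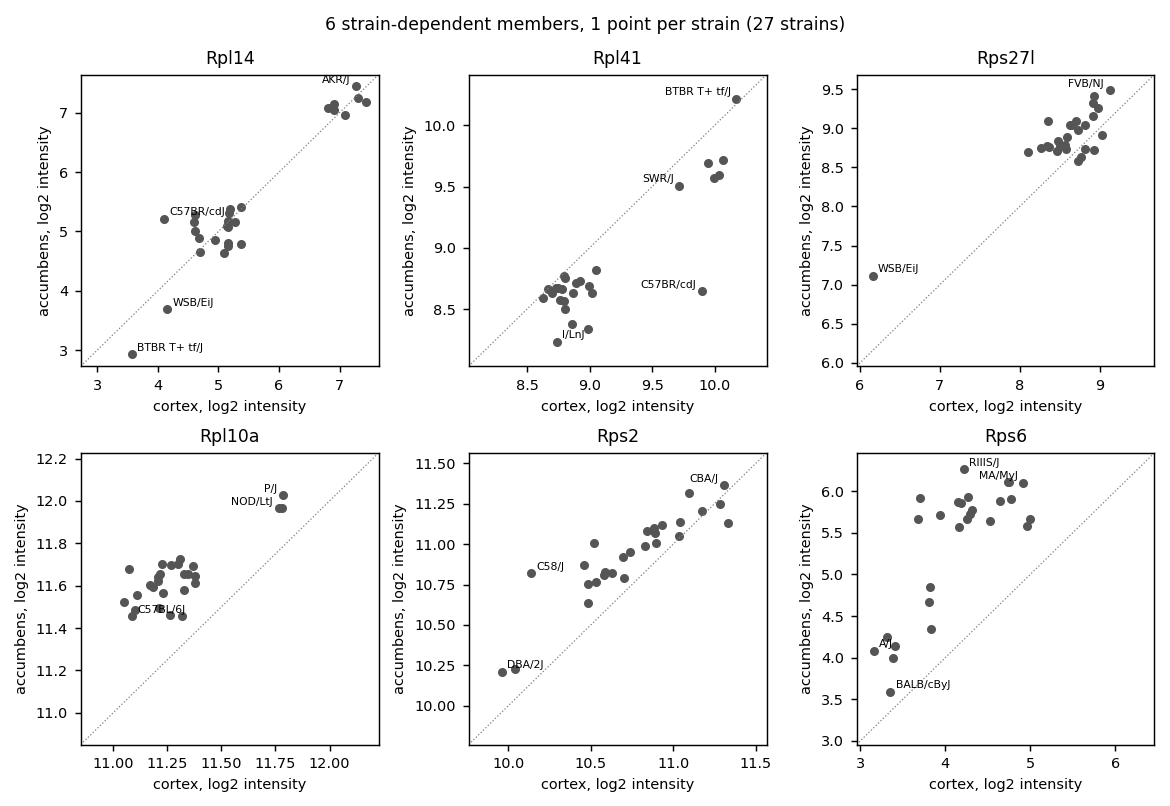
Log2 intensity in cortex (x) against accumbens (y) for 6 strain-dependent members, 1 point per strain, with equal values on the dotted line. Rpl14 and Rpl41 fall into separate levels, WSB/EiJ alone is low for Rps27l, and the point labelled C57BR/cdJ is high for Rpl41 in cortex only.

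The remaining 31 members did not pass the strain test, and their spreads differed. Rps29 and Rps28 were the tightest, with strain means from 14.18 to 14.33 and from 13.01 to 13.20. Rpl27a strain means ran from 6.07 to 6.91 (limma adjusted p = 0.62). The dim Rpl12 and Rps25, with low ends under log2 5, spanned at least 0.38 and 0.55. C57BL/6J had the lowest strain mean in 9 of 40 members, against 8.07% of all features, and the highest in 0, against 2.35%. The C57BL/6J cortex array also had the lowest median over all tested features (6.83) among cortex arrays. Its difference between 3′ and 5′ actin probe sets (1.31) was the lowest there too, and the part of either in this count was not tested. WSB/EiJ had the lowest strain mean in 6 members, against 8.17% of all features, and 129S1/SvImJ in 5, against 2.35%. BTBR T+ tf/J had the highest strain mean in 10, against 3.55% of all features. The members share arrays, so these counts are not independent.

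Most pairs of members were positively correlated across strains, with low median values. No matching value for other features is given, so this does not set the members apart. The median correlation over the 780 pairs of members was 0.25 in cortex and 0.30 in accumbens across 27 strains, and 85.0% and 87.2% of pairs were above 0; arrays and their normalization are shared by all pairs. Rps10 had the highest mean correlation with the rest in cortex (0.41), Rps19 in accumbens (0.47), and the strain-dependent Rpl41 (-0.01, cortex) and Rpl10a (0.02, accumbens) the lowest.

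The mean of the 40 members, taken as deviation from the region's mean, was lowest in the WSB/EiJ cortex array (-0.21, with 4 of 40 members above their region mean) and the I/LnJ accumbens array (-0.19, 3 of 40). It was highest in the MA/MyJ cortex array (0.18, 37 of 40), the array with accumbens-like spiny neuron markers, and in the BUB/BnJ cortex (0.16) and RIIIS/J accumbens (0.15) arrays. The median over the members, which single outlying genes move less, gave another order. Lowest by the median were DBA/2J in cortex (-0.17, 3 of 40) and 129S1/SvImJ in accumbens (-0.14). WSB/EiJ cortex then had -0.13 and I/LnJ accumbens -0.11. Highest by the median were MA/MyJ in cortex (0.18) and BTBR T+ tf/J in accumbens (0.14). Across 27 strains the mean deviations in cortex and accumbens had r = 0.42 and rho = 0.39, as a description. Without WSB/EiJ and MA/MyJ, the strains farthest from the cortex median, r was 0.37, and over the 31 members not called for strain 0.20. Without C57BR/cdJ and C58/J, r was 0.45.

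**Figure D4:**
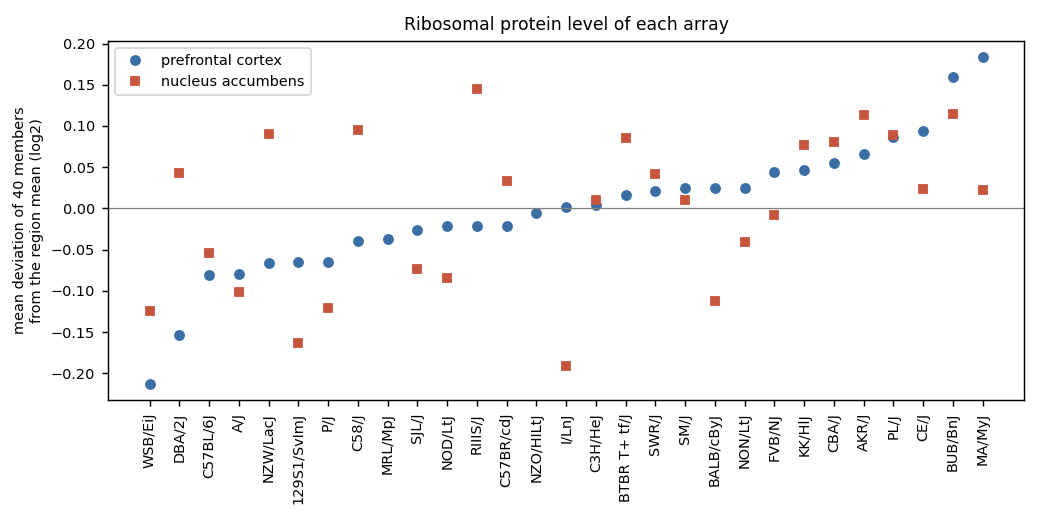
Mean deviation of the 40 members from their region mean (log2) for each strain, cortex as circles and accumbens as squares, ordered by the cortex value. WSB/EiJ lies lowest in cortex at -0.21 and MA/MyJ highest at 0.18.

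Genes that work with the ribosome were read from 5 lists. Of 16 tested elongation factors and other TOP mRNAs, 13 were higher in accumbens and 1 lower, with a median difference of 0.35. Npm1, a nucleolar chaperone, rose by 0.71, and Naca and Btf3, the subunits of the nascent polypeptide-associated complex, by 0.69 and 0.61. Hnrnpa1 was the exception, lower by -0.15 ± 0.04 (adjusted p = 0.0005).

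All 5 ribosomal proteins outside the symbol rule were higher in accumbens, and their median difference was 0.26. Rpl22l1, the paralogue of Rpl22, rose by 0.75 and Rpsa, the laminin receptor precursor, by 0.59, and Rpl7l1 by 0.26. Rpsa, which was also strain-dependent (adjusted p = 0.0016), was lowest in I/LnJ and highest in CBA/J.

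Of 75 mitochondrial ribosomal proteins, which belong to the separate ribosome inside mitochondria, 42 were higher and 15 lower. Their median of 0.13 was near that of all features, and under quantile normalization 27 were lower. Mrpl52 rose by 1.19, Mrps15 by 0.92 and Mrpl9 by 0.83, while Mrpl14 fell from 5.02 to 4.07, at least 1.01-fold against log2 5. Of the list 15 depended on strain.

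Ribosome biogenesis genes were mixed, with 13 of 28 higher and 9 lower and a median of 0.07, which was -0.05 after quantile normalization. Ubtf, the RNA polymerase I factor, rose at least 1.41-fold against log2 5, and Gtpbp4 and Ebna1bp2 by 0.66 and 0.54. Eif6, which keeps free large subunits from joining, fell by 0.66 ± 0.05 (adjusted p = 1.1e-13).

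The mTOR and S6 kinase list had a median difference of -0.09, and of its 18 tested genes 6 were higher and 9 lower. Eef2k, the kinase that inhibits elongation factor 2, fell by 0.73, Rps6kc1 by 0.48 and Rheb, the activator of mTOR, by 0.35. Rps6ka5 rose by 2.35 ± 0.16 (5.09-fold; adjusted p = 1.5e-14).

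**Figure D5:**
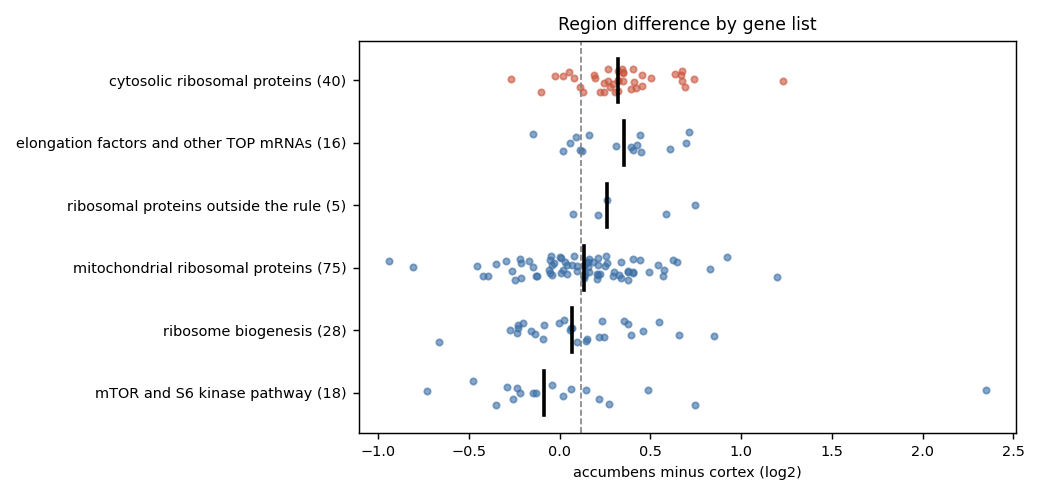
Accumbens minus cortex difference (log2) of each tested gene in the 6 gene groups, with the number of genes in brackets, a thick line at each median and the dashed line at the median of all features, 0.12. Cytosolic ribosomal proteins (median 0.32) and TOP mRNAs (0.35) lie to the right of the dashed line, mitochondrial ribosomal proteins (0.13) near it, and the mTOR list (-0.09) to the left.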

How the data were processed

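The authors deposited 1 table of linear probe set intensity for 56 arrays. The submitters' processing notes list GCRMA, which corrects background, normalizes by quantiles and summarizes probes; no version was given in the sources used here. Whether the regions were normalized together is not stated: over probe sets with 1 symbol, the 99th percentile of the deposited intensity ran from 2042 to 2181 on cortex arrays and from 2183 to 2386 on accumbens arrays. Of 45015 probe sets, 64 controls were left out; 34880 had 1 gene symbol, 923 several and 9148 none in the platform table. Intensities were turned to log2 without a pseudocount, kept if above log2 5 on at least 13 of 54 paired arrays, and each gene was represented by its brightest probe set. The number of arrays limits the precision.

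limma 3.58.1 in R 4.3.3 fitted region with strain as a block (27 pairs), with arrays paired by strain label. The cross-region correlations used features chosen by the strain test, so they do not check this pairing independently. Region was tested with the moderated t and strain with the moderated F statistic, adjusted by Benjamini-Hochberg over all 10684 features, at 0.05. The fits were tested on simulated data. Tables and figures used Python 3.11.15, pandas 2.3.3, numpy 2.4.6, scipy 1.17.1 and matplotlib 3.10.9. Promoter sequences are RefSeq's. The members, lists and tests were chosen with earlier results of these data known. Members were named by a rule on size of difference, strain spread, brightness, probe set disagreement and known roles. Alternatives changed the filter, scaling, probe set, variance model, strains and block.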

Additional observations from a re-analysis of the deposited data

How the results depend on the processing

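The count of members higher in accumbens stayed between 28 and 39 under every alternative tried, 28 of 32 when probe sets prone to cross-hybridisation were left out and 39 of 45 without a filter. The count of members lower in accumbens, 2 as reported, was 1 with the mean of probe sets, the actin covariate, without 5 or 9 strains that stand apart in neuron markers, with the random replicate block on 56 arrays and at a threshold of 0.01; it was 0 without probe sets prone to cross-hybridisation and with no replicate block (strain pairing left out). Beside a lowered median of all features, the members' median of 0.32 was 0.22 with quantile normalization and 0.22 with centred arrays, and the mean difference of all members, 0.34, was 0.23 and 0.24. The count of strain-dependent members, 9 of 40, was 5 of 32 without probe sets prone to cross-hybridisation, 6 without 9 strains, 12 with trended and robust variances and 12 of 45 without a filter, and between 8 and 10 under the other alternatives. Members with 1 strain apart in both regions, 1, were 2 at a gap of 0.5 and 0 on every other probe set. Reversed were Rpl41 with the mean of probe sets (0.094) and without probe sets prone to cross-hybridisation (0.70, from a probe set whose cortex mean is under log2 5), Rpl37a with the mean of probe sets (-0.26), Rpl19 with quantile normalization (-0.053) and centring (-0.021), Rps15 (-0.0042) and Rps28 (-0.034) with quantile normalization, and the biogenesis list median (-0.054 and -0.034 with quantile normalization and centring). For these reversals the cause was not tested, apart from the change of probe set or scale itself. Over all members and alternatives, 562 region differences kept direction and side of the threshold, 15 lost their call, 2 gained one and 7 were reversed. Leaving out C57BR/cdJ and C58/J, the 5 strains of crossing pairs, or MA/MyJ was chosen after seeing the data and gave 35, 34 and 35 members higher. Dim probe sets, and probe sets shared with pseudogenes, limit single genes.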

Other observations

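The 2 strains with a cortex array alone entered no test. MRL/MpJ had 3.24 for Rpl14, below every paired cortex array, 9.92 for Rpl41 and 10.18 for Rps2. NZO/HILtJ had 4.68 for Rpl14, 8.74 for Rpl41 and 10.61 for Rps2.

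A second probe set of Rps9, a small subunit protein, had a wide strain spread (span 4.59, with or without C57BR/cdJ and C58/J) that its brightest probe set lacked (span 0.36, limma adjusted p = 0.48). It read 9.37 in cortex and 10.99 in accumbens in C57BL/6J, 7.99 and 10.56 in C58/J, and 9.61 in NZO/HILtJ cortex, against medians of 5.64 and 5.89 over all cortex and all accumbens arrays. DBA/2J had 8.13 in cortex and 5.80 in accumbens, and the C58/J and DBA/2J cortex arrays are those that resembled each other. A dimmer probe set of Rpl13a also varied with strain, lowest in P/J (7.40 and 8.03) and spanning 1.54. Both were chosen after their values were seen.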
